A study of Arabidopsis thaliana with 3 samples.

Results

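The cytosolic large ribosomal subunit of Arabidopsis was examined through a list of 60 genes that encode 28 of its proteins. The genes were listed by locus, with earlier results of these data known, and each was read on its brightest probe set with exactly 1 gene. Of the 60, 44 had a probe set of their own, and these covered 21 of the 28 proteins. A probe set is a group of short oligonucleotides on an Affymetrix array whose brightness is combined into 1 signal for a gene. A further 4 genes were read only on probe sets that 2 genes share, and 12 were not analysed here because no probe set was paired with them: RPL3B, RPL5B, RPL8C, RPL11A, RPL11B, RPL18B, RPL23A, RPL23B, RPL24A, RPL27aB, RPL27aC and RPL30C. Shared probe sets were searched by locus only, so a gene listed on one under another symbol would have been missed. On the whole array, 13333 genes had a probe set of their own among 22746 probe sets. The names used here (RPL4A, for example) are those of the Arabidopsis nomenclature for cytosolic ribosomal proteins, and the locus is printed where a gene is first described. A capital letter at the end of a name marks the paralogue, and a lower-case a belongs to the protein, so L7 and L7a are different proteins.

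The large subunit holds the site where peptide bonds are formed, the tunnel through which the new chain leaves, and the stalks where translation factors and tRNA come and go. Each protein is present in at most a single copy per subunit outside the acidic stalk, yet in Arabidopsis nearly every one is encoded by several paralogous genes. The pollen grain is known from several plants to enter germination with ribosomes and messenger RNAs already stored, and tube growth depends on translation far more than on new transcription.

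The comparison was between germinating pollen and whole seedlings of the accession Col-0, on 3 ATH1 arrays without any genetic change or treatment beyond the growth conditions. Germinating pollen was on 2 arrays: the labels give 6 h of incubation at 25°C, a sucrose concentration of 13.5% in the medium and germination of about 80% of the grains. Seedlings were on 1 array and were taken whole, with their roots and first rosette leaves. The plants grew at 22°C in the light and 18°C in the dark, and the labels and the design text give different day lengths. Each labelling used 10 µg of total RNA. A lithium chloride precipitation is given for the pollen samples and not in the label of the seedling sample, while the design text gives it for all, so this step and the tissue cannot be told apart. The pollen hybridisation was a duplicate, and no source says that the 2 arrays came from separate plants, so the spread behind each p-value is that of 2 hybridisations and may be purely technical. In bulk RNA of this kind, fewer cells of a type and less RNA per cell cannot be told apart, and each difference is a change relative to the other signals of its array.

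Signals are on a linear MAS5 scale after the arrays were brought to a common 2% trimmed mean. A signal was called above the detection level of its array where it exceeded both the pooled median of 42.3 and the brightest of 27 array controls without a target. That level was 47.1 on pollen array 1, 65.7 on pollen array 2 and 42.3 on the seedling array, and 44.7%, 36.0% and 52.1% of all probe sets were above it. Pollen tube genes marked the pollen arrays as labelled: 10 of 10 measured were higher there, with summed signals of 2.88% and 2.91% of the array against 0.00179% in seedlings. Of 8 leaf photosynthesis genes, 7 were lower in pollen, with summed signals of 0.00274% and 0.00322% of the array against 0.984% in seedlings, and the chlorophyll-binding protein gene LHCB4.2 had pollen signals of 3.03 and 7.79. Of 6 tapetum and flower organ genes, 4 were tested, 0 were called higher in pollen and NGA1 was lower. The 3 not called had log2 differences toward pollen: 0.75 for NGA2, 1.28 for SPT and 1.72 for RBE. Of these, SPT and RBE had an unadjusted limma p under 0.05. Summed signals of the 6 genes were 0.00437% and 0.00502% of the pollen arrays and 0.00492% of the seedling array. The 2 root hair genes were under the level in seedlings, so they did not mark the roots of that sample. EXPA7 had 121 and 101 in pollen and 22.0 in seedlings and was called higher in pollen. EXPA18 had 113 and 56.4 in pollen and 23.6 in seedlings and was not called. The ratio of the 3′ to the 5′ ubiquitin control, which rises with RNA breakdown, was 2.02 on pollen array 1, 2.42 on pollen array 2 and 1.59 in seedlings, and its part in the results was not tested.

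Transcripts of the large-subunit genes were low in germinating pollen and bright in seedlings. Over the 44 genes, the median signal was 38.2 on pollen array 1, 41.4 on pollen array 2 and 1439 on the seedling array. When the signals of each array were summed, the 44 genes accounted for 0.0369% on pollen array 1, 0.0384% on pollen array 2 and 1.54% on the seedling array. In seedlings 41 genes were above the detection level and 27 had a signal of 1000 or more. In pollen 10 genes were above the level on both arrays, 13 on only 1 array and 21 on none.

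Of the 44 genes, 41 were brighter in seedlings than on either pollen array, and these were the 41 above the level in seedlings. The matching share over all probe sets is not given here. All probe sets that passed a filter on dim signals were tested with limma, with Benjamini-Hochberg adjustment over the 14815 tested. Of 42 large-subunit genes tested, 41 were lower in pollen, 0 were higher and 1 was not called, and that 1, RPL8B, also had an unadjusted p above 0.05. Over all probe sets tested, 31.7% were lower and 22.1% were higher. The adjusted p of the 41 ran from 0.000344 to 0.0423. Because 30 of the 42 passed the filter only through the seedling array, where they were bright, the count over the filtered genes is not independent of that filter. Of the 12 genes above the filter's floor on both pollen arrays, 11 were lower. The share among all probe sets above that floor on both pollen arrays is not given here, so this count has no matching background. Without the filter all 44 genes were tested, and 40 were lower and 0 higher in pollen, whereas 13.9% of all 22746 probe sets were lower. RPL7A, RPL8B and RPL13C were among the 4 then not called, with adjusted p of 0.0797, 0.345 and 0.481.

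**Figure D1:**
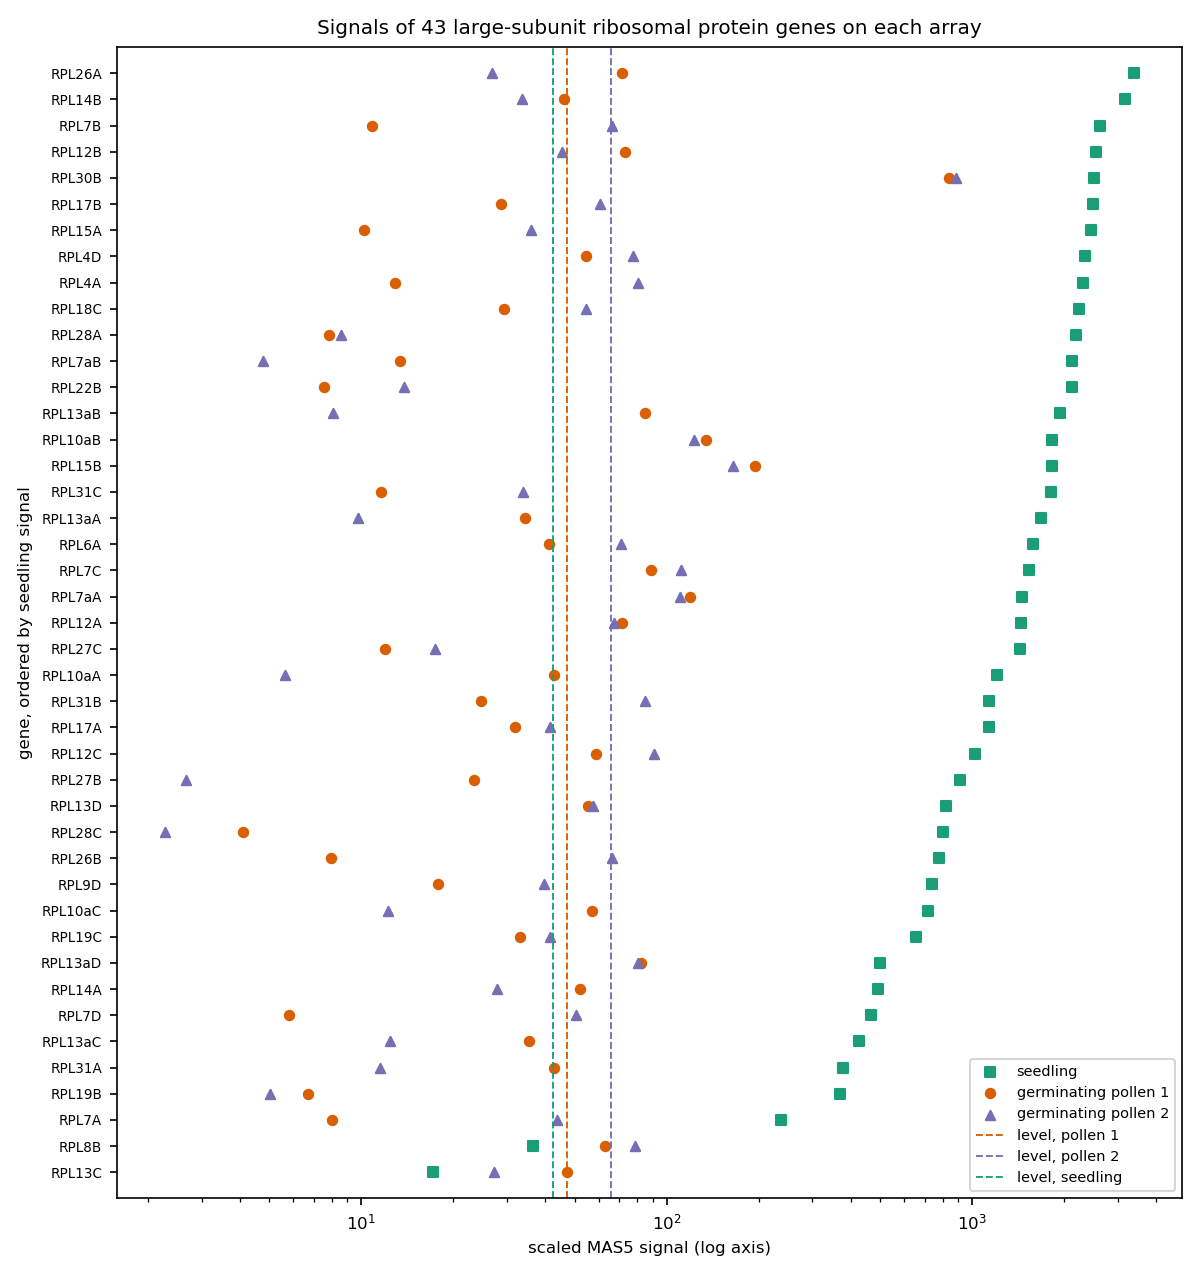
Signal of each of 43 large-subunit genes on the 2 pollen arrays (circles and triangles) and the seedling array (squares), on a log axis in MAS5 units, with genes ordered by their seedling signal; dashed lines mark the detection level of each array. The seedling squares lie to the right of both pollen points for 41 genes, and RPL30B is the gene whose pollen points stand apart at 839.9 and 883.

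The size of the difference was read in 2 ways. The log2 difference, pollen minus seedling, was taken after an offset of 14.7 was added to every signal, and its median over the 42 tested genes was -4.36, against -0.61 over all probe sets tested. It ran from -6.58 for RPL28A to 0.74 for RPL8B among the tested genes. A fold was given as a ratio of signals only where all 3 arrays were above the detection level, and otherwise as a lower bound with each pollen signal raised to the level. By that rule 31 of the 44 genes were at least 10-fold lower on both pollen arrays, against 3.86% of all 22746 probe sets, and 0 were at least 10-fold higher, against 4.24%. The median SD between the 2 pollen arrays was 0.418 on the log2 scale for the 44 genes and 0.227 over all probe sets tested. These sets were not matched for brightness, and only 10 of the 44 genes were above the level on both pollen arrays. Of the 44 genes, 21 were brighter on pollen array 1 and 23 on pollen array 2. Across the 44 genes, which share their arrays and are not independent replicates, the log2 signals of the 2 pollen arrays correlated at r = 0.577, and at r = 0.378 over the 43 genes without RPL30B.

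The proteins that line the exit tunnel or lie at its mouth were read through 9 genes, and all 9 were lower in pollen, with a median log2 difference of -4.87. Only 1 of the 9 was above the filter's floor on both pollen arrays, so the others were tested through their seedling signal. Over all probe sets tested 31.7% were lower, and differences between places in the subunit were not tested. RPL4A (AT3G09630) and RPL4D (AT5G02870) encode a protein with a loop that reaches into the tunnel wall. RPL4D had signals of 54.6 and 77.8 in pollen and 2336 in seedlings. All 3 arrays were above the level, and the gene was 35.8-fold lower in pollen (log2 difference -4.87 ± 0.268 SE, limma adjusted p = 0.000603). RPL4A had 12.9 and 80.6 in pollen and 2309.6 in seedlings. Its pollen arrays disagreed, with only the second above the level, and it was at least 37.5-fold lower (adjusted p = 0.00765). RPL17A (AT1G27400) and RPL17B (AT1G67430), whose protein also lines the tunnel, were under the level on both pollen arrays, with seedling signals of 1136 and 2490.3, and the bounds were at least 20.4-fold for RPL17A and at least 44.8-fold for RPL17B.

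At the mouth of the tunnel, RPL26A (AT3G49910) had signals of 71.2 and 26.8 in pollen and 3378 in seedlings. In pollen it was above the level on 1 array of 2. The gene was at least 49.4-fold lower (log2 difference -5.83 ± 0.497, adjusted p = 0.00202). RPL26B (AT5G67510) had 7.98 and 66.3 in pollen and 779 in seedlings and was at least 14-fold lower (adjusted p = 0.0197). The 3 genes for L31, RPL31A (AT2G19740), RPL31B (AT4G26230) and RPL31C (AT5G56710), had seedling signals of 377.8, 1139.9 and 1818. Among their 6 pollen signals only that of RPL31B on array 2, 84.9, was above the level. Their bounds were 6.79-fold for RPL31A, 18.0-fold for RPL31B and 32.7-fold for RPL31C, all lower in pollen, with adjusted p between 0.00216 and 0.0186.

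The stalk proteins were read through 7 genes, and all 7 were lower, with a median log2 difference of -4.12, whereas 31.7% of all probe sets tested were lower. Of the 7, 4 were above the filter's floor on both pollen arrays. L10a forms the mobile stalk by which spent tRNA leaves the ribosome. RPL10aB (AT2G27530, PGY1, a gene known for its part in leaf polarity) had signals of 134 and 123 in pollen and 1831 in seedlings. Its pollen arrays lay close together and well above the level, and it was 14.2-fold lower (log2 difference -3.69 ± 0.171, adjusted p = 0.000377). RPL10aA (AT1G08360) had 42.9 and 5.62 in pollen and 1205 in seedlings and was at least 21.7-fold lower. RPL10aC (AT5G22440) had 57.0 and 12.2 in pollen and 714.5 in seedlings and was at least 11.7-fold lower. Neither of these was above the level on both pollen arrays, so of the 3 genes for L10a only PGY1 had a pollen signal above the level on both arrays.

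L12 forms the base of the acidic stalk, which recruits the elongation factors. RPL12A (AT2G37190) had signals of 71.3 and 67.0 in pollen and 1441 in seedlings, and RPL12C (AT5G60670) had 58.5 and 90.6 in pollen and 1019.6 in seedlings. Both were above the level on all 3 arrays, by a narrow margin in pollen, and they were 20.8-fold and 14-fold lower (adjusted p = 0.000557 and 0.00236). RPL12B (AT3G53430) had 73.2 and 45.5 in pollen and 2542 in seedlings and was at least 36.7-fold lower. RPL9D (AT4G10450), whose protein lies where translation factors bind, had 17.9 and 39.6 in pollen and 738 in seedlings and was at least 13.3-fold lower (adjusted p = 0.00443). The listed genes for the proteins that carry the 5S rRNA, L5 and L11, were not analysed here.

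For the catalytic core the only measured gene was RPL8B (AT3G51190), whose protein supports the peptidyl transferase centre. It had signals of 62.9 and 79.0 in pollen and 36.4 in seedlings. It was above the level on both pollen arrays and under it in seedlings, the opposite order to the 41 genes that were lower. The log2 difference of 0.74 ± 0.512 did not pass the test (limma adjusted p = 0.276), and the bound is at least 1.67-fold higher in pollen. The log2 difference was 0.95 with quantile normalization and 1.17 with the 75th percentile, and it turned to -1.13 when the arrays were scaled on their hybridisation spikes. Without the offset it was 0.95, and with the floor as offset 0.52. The filter and the variance trend cannot change a log2 difference, so they say nothing about its direction.

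The proteins at the face joined to the small subunit were read through 3 genes, all lower in pollen, as were 31.7% of all probe sets tested. Of the 3, only 1 was above the filter's floor on both pollen arrays. RPL30B (AT1G77940), whose protein lies at that face, had signals of 839.9 and 883 in pollen and 2511 in seedlings. It was the gene whose pollen signals lay farthest above the detection level, more than 10 times on either array, and the ratio of the pollen arrays was 0.952. The gene was 2.92-fold lower in pollen (log2 difference -1.53 ± 0.0998, adjusted p = 0.000975), the smallest fold among the 41. Of the summed signal of the 44 genes it made up 29.8% on pollen array 1, 30.5% on pollen array 2 and 4.06% in seedlings, although probe sets differ in how bright they are per transcript. RPL19B (AT3G16780) had 6.69 and 5.03 in pollen and 369 in seedlings, and RPL19C (AT4G02230) had 33.1 and 41.5 in pollen and 655 in seedlings. Their protein reaches across to the small subunit. Both were under the level on both pollen arrays, with bounds of at least 6.64-fold for RPL19B and at least 11.8-fold for RPL19C, and both were called lower.

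**Figure D2:**
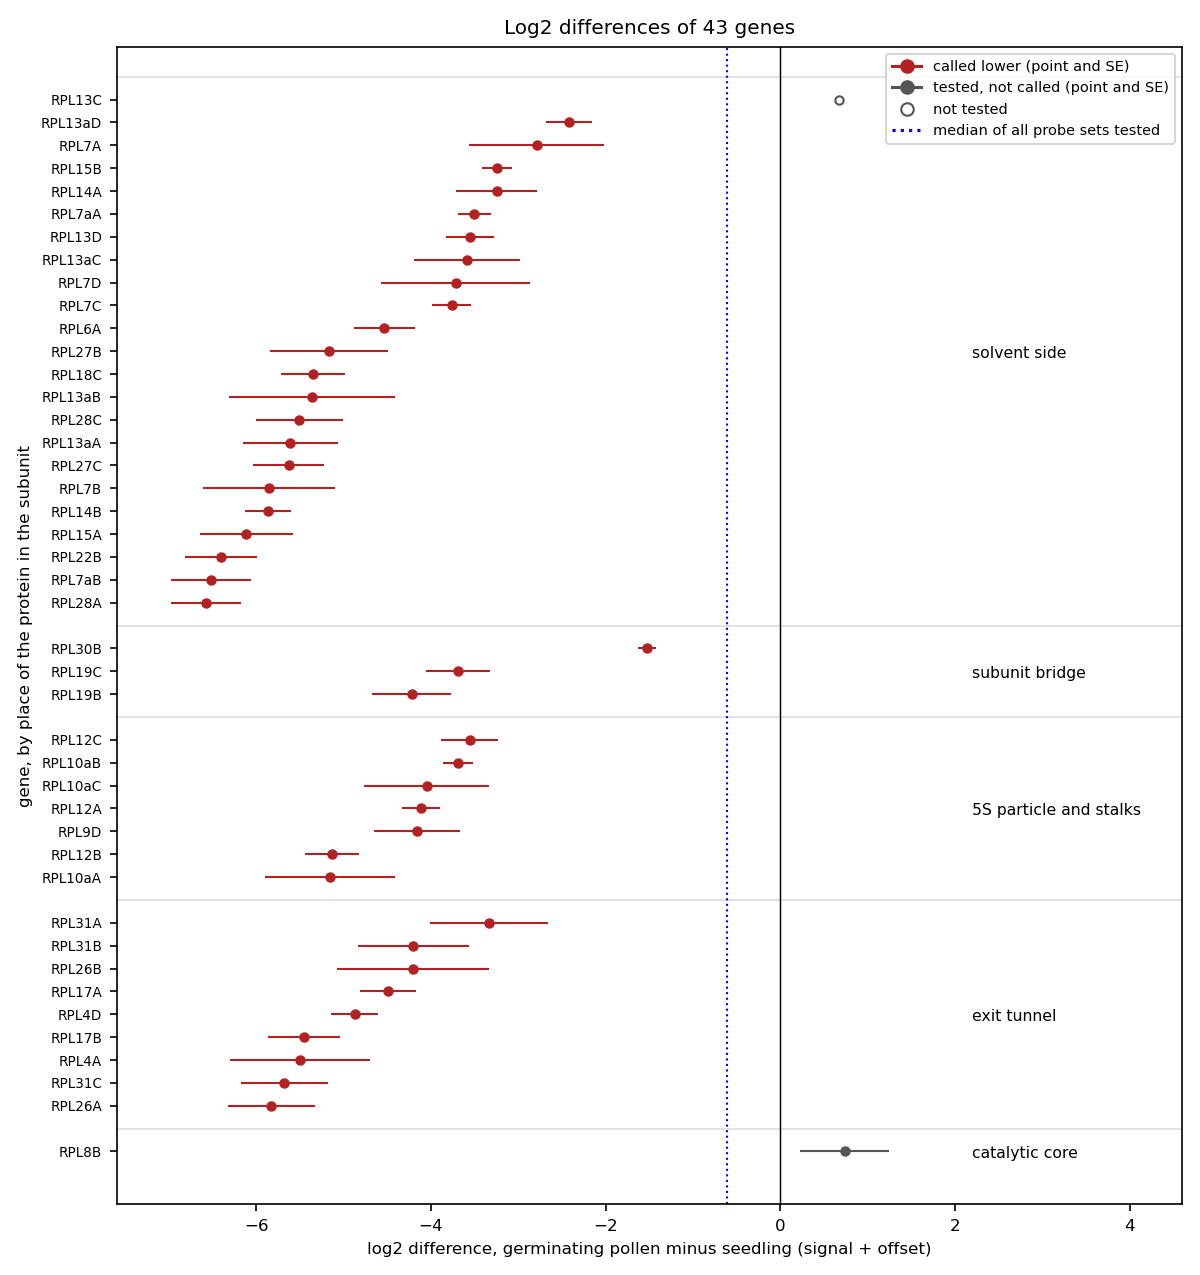
Log2 difference, germinating pollen minus seedling, of 43 genes grouped by the place of their protein in the subunit; points are the estimates from 2 pollen arrays and 1 seedling array, bars are 1 SE, the open circle was not tested, and the dotted line is the median of all probe sets tested, -0.61. All called genes lie to the left of the dotted line, and RPL30B at -1.53 is the nearest of them to it.

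The largest group, the proteins of the solvent side and those buried in the 25S rRNA, had 24 measured genes. Of these, 22 were tested and all 22 were lower, with a median log2 difference of -5.26, whereas 31.7% of all probe sets tested were lower. The filter left out 2 genes, of which RPL13C had a log2 difference of 0.67. Only 5 of the 24 were above the filter's floor on both pollen arrays, so the count and the median are not independent of the filter. RPL28A (AT2G19730), which encodes a eukaryotic protein of the solvent side, had the largest log2 difference of the list. Its signals were 7.85 and 8.60 in pollen and 2182 in seedlings. Both pollen arrays were far under the level, and the gene was at least 39.2-fold lower (log2 difference -6.58 ± 0.40, adjusted p = 0.000795). Its paralogue RPL28C (AT4G29410) had 4.11 and 2.28 in pollen and 801 in seedlings and was at least 14.4-fold lower. RPL22B (AT3G05560), an RNA-binding protein gene, had 7.53 and 13.8 in pollen and 2122 in seedlings and was at least 38.1-fold lower (log2 difference -6.41 ± 0.411, adjusted p = 0.000929).

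RPL14B (AT4G27090) gave the highest lower bound of the list. Its signals were 46.2 and 33.7 in pollen and 3156 in seedlings, and it was at least 56.7-fold lower (log2 difference -5.87 ± 0.264, adjusted p = 0.000344). RPL14A (AT2G20450) had 52.1 and 27.8 in pollen and 493 in seedlings and was at least 8.42-fold lower. RPL14B was under the level on both pollen arrays and RPL14A on array 2, so both folds are bounds. RPL27B (AT3G22230) and RPL27C (AT4G15000), also genes for a eukaryotic protein of the solvent side, were under the level on both pollen arrays and were lower by at least 16.4-fold and by at least 25.8-fold. RPL6A (AT1G18540) had 41.0 and 70.8 in pollen and 1585 in seedlings and was at least 27.5-fold lower.

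Within a protein, paralogues were compared by their log2 differences, since the levels of different probe sets cannot be set against each other. Of 30 pairs with both genes tested, 11 differed by more than 2 SE, and 24 had the same sign on both pollen arrays. The differences printed below come from the proteins with the widest ranges. Their SE combines those of the 2 genes as if independent, although both genes were read on the same 3 arrays. Of the 21 measured proteins, 18 had every measured paralogue lower in pollen, and L8 and L13 were among the others. Where a gene is under the level in pollen, its log2 difference rests on its seedling signal and on pollen readings under the level. Only a lower bound of its fold is then known. In 7 proteins a paralogue with a measured ratio stood beside at least 1 with a bound, and their values are given side by side with no count of which was larger. Whether a gene has a ratio or a bound depends on its own pollen signal, and a bound on the seedling signal of its probe set, so that bounds above ratios are partly set by this division. How much RNA of one paralogue binds the probes of another was not tested.

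**Figure D3:**
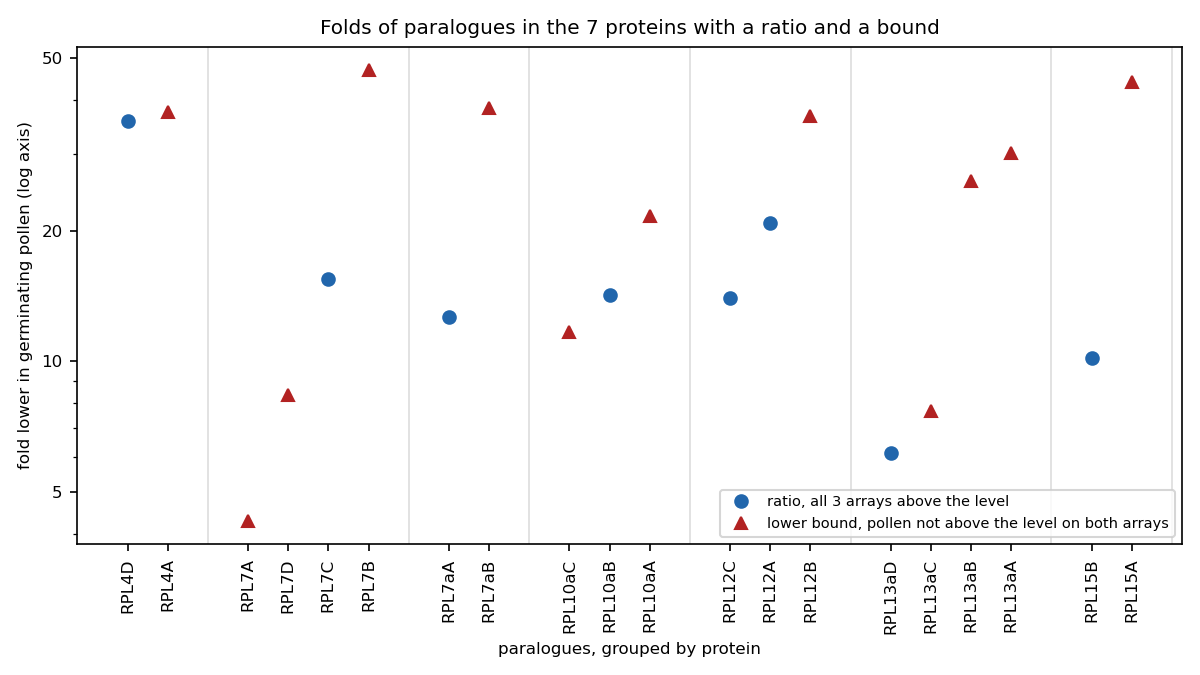
Fold lower in germinating pollen, on a log axis, of the paralogues of 7 proteins; circles are ratios of signals with all 3 arrays above the detection level and triangles are lower bounds. The true fold of a triangle may lie anywhere above it, and its height follows the seedling signal. The circles run from 6.12-fold for RPL13aD to 35.8-fold for RPL4D.

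L7a, which joins the subunit early in assembly, was read through both of its listed genes. RPL7aA (AT2G47610) had signals of 119 and 111 in pollen and 1453 in seedlings, and RPL7aB (AT3G62870) had 13.4 and 4.75 in pollen and 2131 in seedlings. The first stayed measurable in pollen and the second was far under the level. RPL7aA was 12.7-fold lower (adjusted p = 0.00053) and RPL7aB at least 38.3-fold lower (adjusted p = 0.0012). Their log2 differences lay 3.01 ± 0.494 (SE) apart, a value that rests on a pollen signal under the level for RPL7aB and was not tested.

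L15, a protein buried deep in the 25S rRNA, also had 1 gene with a ratio and 1 with a bound. RPL15B (AT4G17390) had signals of 195 and 165 in pollen and 1829 in seedlings. RPL15A (AT4G16720) had 10.2 and 36.0 in pollen and 2453 in seedlings. RPL15B was 10.2-fold lower and RPL15A at least 44.1-fold lower (adjusted p = 0.000575 and 0.00211). Their log2 differences lay 2.87 ± 0.559 apart, with RPL15A under the level on both pollen arrays.

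L13a binds the 25S rRNA and had 4 measured genes. RPL13aD (AT5G48760) had signals of 82.6 and 80.4 in pollen and 499 in seedlings. Both pollen arrays read it above the level, and it was 6.12-fold lower (log2 difference -2.42 ± 0.265, adjusted p = 0.00358), the second smallest measured ratio after RPL30B. RPL13aA (AT3G07110) had 34.4 and 9.73 in pollen and 1679 in seedlings. RPL13aB (AT3G24830) had 84.7 and 8.10 in pollen and 1943 in seedlings, so its pollen arrays stood on opposite sides of the level. RPL13aC (AT4G13170) had 35.3 and 12.4 in pollen and 427 in seedlings. All 3 were called lower, with bounds of 30.2-fold for RPL13aA, 26.1-fold for RPL13aB and 7.68-fold for RPL13aC. RPL13aD and RPL13aA differed by 3.19 ± 0.609 in log2 difference, with RPL13aA under the level on both pollen arrays.

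L7 also binds the 25S rRNA and had 4 measured genes. RPL7C (AT2G44120) had signals of 88.7 and 112 in pollen and 1539 in seedlings and was 15.5-fold lower (adjusted p = 0.000752). It was the only gene for L7 above the level on both pollen arrays. RPL7B (AT2G01250) had 10.8 and 66.1 in pollen and 2623 in seedlings and was at least 47.0-fold lower (log2 difference -5.86 ± 0.758, adjusted p = 0.00548). RPL7D (AT3G13580) had 5.78 and 50.4 in pollen and 466 in seedlings and was at least 8.37-fold lower. RPL7A (AT1G80750) had 7.99 and 43.7 in pollen and 238 in seedlings and was at least 4.27-fold lower. Its adjusted p of 0.0423 was the highest among the 41, and 5 of the 8 refitted alternatives left it uncalled, with adjusted p from 0.0518 to 0.0991. For RPL7D the adjusted p of 0.0262 rose to 0.0798 without the offset and to 0.0508 without the variance trend.

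L13 is a eukaryotic protein of the solvent side with 2 measured genes. RPL13C (AT3G48960) had signals of 47.3 and 27.2 in pollen and 17.2 in seedlings. It was above the level on 1 pollen array and under it in seedlings, and it was not tested. RPL13D (AT5G23900) had 55.3 and 57.5 in pollen and 822 in seedlings and was at least 13.6-fold lower (adjusted p = 0.00153). RPL18C (AT5G27850), for another eukaryotic protein of the solvent side, had 29.4 and 54.5 in pollen and 2246 in seedlings and was at least 40.4-fold lower (adjusted p = 0.00113).

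Position on the chromosome gave pairs of neighbours among the listed genes in the order of the RefSeq annotation. RPL28A and RPL31A lie next to each other with 0 protein-coding genes between them, and their log2 differences were -6.58 and -3.34, with seedling signals of 2182 and 377.8 and pollen signals under the level for both. RPL6B and RPL6C are adjacent too and are read by 1 shared probe set.

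Other genes of the translation machinery were read from the same fit, in which 31.7% of all probe sets tested were lower and 22.1% higher. Of 98 listed genes for proteins of the small subunit, 48 were measured and 42 tested; 35 were lower in pollen, 0 were higher, and 3 of the 7 not called had an unadjusted p under 0.05. Their median log2 difference was -4.55, against -4.36 for the large-subunit genes. At least 10-fold lower were 27 of the 48, against 31 of the 44 large-subunit genes and 3.86% of all probe sets. Of 69 listed genes for the other large-subunit and stalk proteins, 37 were measured and 33 tested, with 29 lower, 1 higher, 3 not called and a median of -3.36. Of these 37, 14 were at least 10-fold lower. Above the level on both pollen arrays were 13 of the 37, against 10 of the 44 large-subunit genes. Of 40 ribosome biogenesis factors, 11 were measured and 10 tested, with 7 lower, 1 higher, 2 not called and a median of -2.46. The 7 became 4 with quantile normalization, with the 75th percentile, without the offset and without the filter. Of 40 translation factors, 5 were measured and tested, with 3 lower, 0 higher, 2 not called, of which 1 had an unadjusted p under 0.05, and a median of -2.55; with the arrays scaled on their spikes all 5 were lower. The difference between these lists and the large-subunit genes was not tested.

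Of these lists, 2 genes were called higher in pollen. AT3G28500, which encodes an acidic stalk protein of the P2 type, had signals of 167 and 150 in pollen and 35.9 in seedlings and was higher in pollen (log2 difference 1.77 ± 0.373, limma adjusted p = 0.0205). AT3G15460, which encodes a relative of the yeast assembly factor Brx1, had 201 and 225 in pollen and 81.2 in seedlings and was also higher (log2 difference 1.25 ± 0.270, adjusted p = 0.0221). Neither was called higher once the arrays were scaled on their hybridisation spikes. AT1G52300, which encodes the zinc-binding large-subunit protein L37, had 844 and 917 in pollen and 3052 in seedlings, and was 3.47-fold lower (adjusted p = 0.00076). Among the genes not called, AT2G32220, for a further paralogue of L27, had 66.4 and 79.9 in pollen and 95.1 in seedlings, with all 3 arrays above the level (log2 difference -0.33 ± 0.447, adjusted p = 0.558). In the small-subunit list AT2G16360 had 57.7 and 95.6 in pollen and 35.5 in seedlings (log2 difference 0.83 ± 0.561, adjusted p = 0.265), and AT4G34555 had 114 and 89.9 in pollen and 205 in seedlings (-0.92 ± 0.327, adjusted p = 0.078). These last 4 genes were chosen after their values were seen.

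**Figure D4:**
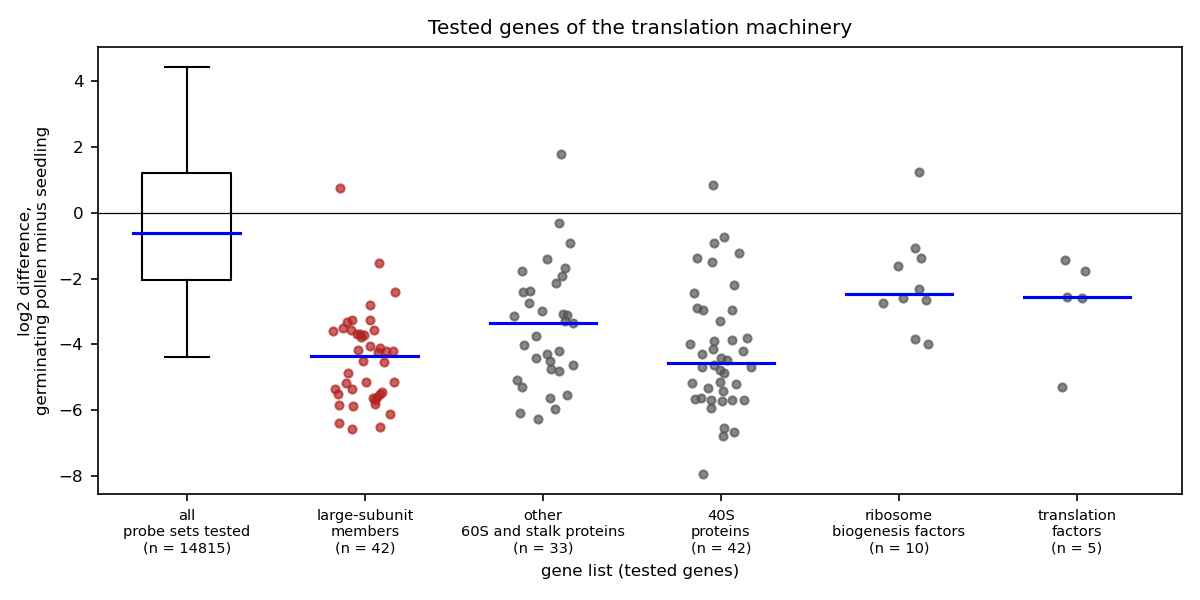
Log2 difference, germinating pollen minus seedling, of the tested genes of 5 lists (points) beside all 14815 probe sets tested (box at the quartiles, whiskers at the 5th and 95th percentiles); blue lines are medians. The median of the 42 large-subunit genes is -4.36, and RPL8B is the only point of that list above 0.

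The differences of the large-subunit genes were also read under other scalings of the arrays. The median of all probe sets tested was -0.61 with the trimmed mean, -0.26 with quantile normalization, 0.02 with the 75th percentile and -2.27 with the hybridisation spikes, whose geometric mean signal was 4122 on pollen array 1, 3681 on pollen array 2 and 785 in seedlings. With the 75th percentile, 3807 probe sets were lower and 4318 higher, and with the spikes 11862 were lower and 1423 higher, against 4692 and 3280 with the trimmed mean. Relative to that median, the median of the tested large-subunit genes was -3.75, -4.42, -3.91 and -4.04 in the same order. It was taken over 43 genes with the spikes and over 42 otherwise. The probe sets behind the median of all numbered 14815, 14650, 14349 and 17801, so the sets differ between scalings. In each of the 4 scalings 41 of the 42 lay under the median of all probe sets and RPL8B lay above it. Apart from quantile normalization, each scaling multiplies a whole array by 1 factor. The genes and that median then move together except through the offset and the filter, so these positions are no independent check. RPL30B moved most between scalings: its log2 difference was -1.53, -2.81, -0.96 and -3.82, and it was called lower in each.

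**Figure D5:**
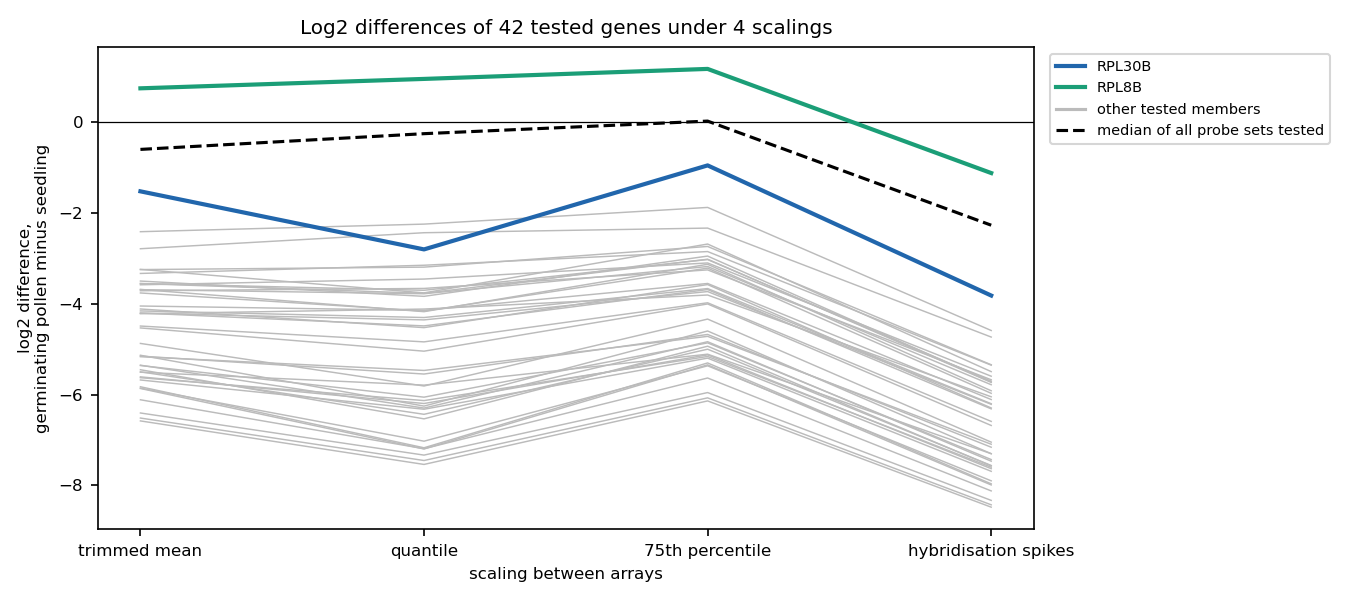
Log2 difference, germinating pollen minus seedling, of the 42 tested genes under 4 scalings between arrays; each line is 1 gene, and the dashed line is the median of all probe sets tested. The lines of RPL30B and RPL8B are coloured, and 41 lines lie under the dashed line in every scaling, with RPL8B above it. Apart from quantile normalization, the scalings largely move all lines and the dashed line together.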

How the data were processed

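The authors deposited 1 linear MAS5 intensity per probe set and array, and the table used here held no detection calls. MAS5 is named in the submitters' processing notes; no version is given in the sources used here. Signals were scaled to equal 2% trimmed means, and 14.7, the 30th percentile, was added before log2, which understates differences of dim genes. Tests covered probe sets over 42.3, the pooled median, in seedlings or on both arrays of pollen. They used lmFit and trended eBayes of limma 3.58.1 in R 4.3.3, two-sided, on 3 arrays, and an adjusted p (Benjamini-Hochberg) under 0.05 was a call. The fit has 1 residual degree of freedom, since the lone seedling array is taken to vary as pollen does. On simulated arrays changes were put only into bright probe sets, and the fit recovered nearly every one. Lowered signals kept the spread of bright ones there, so recovery for genes as dim in pollen as most of these was not simulated. The filter let unchanged dim probe sets into the calls more often than the threshold allows, whereas the fit without the filter did not and recovered fewer of the changes. Folds raise signals under the detection level to it; this level was chosen after values were seen, and the plan had the lower pooled median. The platform annotation paired probe sets with loci, and each large-subunit gene had 1 probe set. Genes named with full statistics were those with the 6 largest log2 differences, those of the 6 proteins with the widest paralogue ranges, and those bounded in 1 tissue; others are named with fewer. The members and gene lists were chosen with earlier results of these data known. The result of 1 gene is not reported here, though sums and counts over the 44 include it. The number of arrays limits the precision. No genome build was named, so no coordinates are given.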

Additional observations from a re-analysis of the deposited data

Results flagged for a closer look

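Probe sets outside the comparison carried signal above the detection level of their array. The probe set shared by RPL32A and RPL32B had 2866 in seedlings, with 2.21 and 56.6 in pollen, and that shared by RPL6B and RPL6C had 1615 in seedlings, with 13.4 and 11.9 in pollen. Both were under the level on the pollen arrays, and the genes of each pair cannot be told apart. The array control for the 25S rRNA, the large RNA of the subunit, had 109.5 and 152 in pollen and 59.2 in seedlings. The control for the 5S rRNA had 172 and 131 in pollen and 6.79 in seedlings, the last under the level. The part of these controls in the results was not tested.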

How the results depend on the processing

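Between 38 and 41 of the large-subunit genes were lower, and 0 higher, in each of the 8 refitted alternatives. The calls lost were RPL7A in 5 of them, RPL7D without the offset and without the variance trend, and RPL26B without the offset (adjusted p = 0.0608). The median log2 difference of -4.36 became -4.68 with quantile normalization, -3.89 with the 75th percentile, -6.31 with the spikes, -5.03 without the offset and -3.82 with the floor as offset, and it ran from -4.54 to -4.32 when 1 pollen array was left out, where no test is possible for lack of residual degrees of freedom. With the 75th percentile, 20 rather than 31 genes were at least 10-fold lower; with either pollen array left out, 32 were. Scaling on the spikes turned RPL8B to -1.13, left 0 higher genes among the other large-subunit proteins and 0 among the biogenesis factors, and gave 5 lower translation factors. Of the biogenesis factors, 4 were lower with quantile normalization, with the 75th percentile, without the offset and without the filter. The causes were not tested. Averaging over probe sets changed nothing, since each gene had 1. Bounds taken at the pooled median are higher, for example 51.6-fold for RPL28A. No paired analysis was possible because the seedling group has 1 array.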
